A study of Homo sapiens with 10 samples.

Results

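Within each doxorubicin (DOX) library, droplet barcodes that held few RNA molecules were compared with barcodes that held many. The cells were HCT-116, an established human colorectal carcinoma line of wild-type genotype, exposed to 200 nM DOX for 24 h and then left to recover for 6 d, and the compared barcodes came from the same 2 libraries, so all of them shared line, drug and time. Single-cell RNA sequencing of the 3′ ends of transcripts gave a count of unique molecular identifiers (UMIs, 1 per captured RNA molecule) for each gene and barcode. Barcodes with less than 8% mitochondrially encoded UMIs were called shallow when they held fewer than 2000 UMIs, and deep when they held at least 20000 and fewer than 150000 UMIs and fewer than 12000 genes. This gave 8581 shallow barcodes (4338 and 4243 in DOX replicates 1 and 2) and 2221 deep barcodes (1259 and 962), out of 16000 barcodes in the DOX libraries and 23229 in all 4 single-cell libraries. Untreated HCT-116 cells, also in 2 libraries, gave 140 and 71 shallow and 3320 and 1924 deep barcodes under the same limits.

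A droplet is meant to hold 1 lysed cell, but it also takes up the fluid around the cell, and with it any RNA that other cells have spilled. Most messenger RNA of an intact cell lies in the cytosol, messages of secreted and membrane proteins are translated at the endoplasmic reticulum, and unspliced or retained transcripts stay in the nucleus. A barcode filled from free RNA would be expected to resemble 1 shared pool in every droplet of a library, whatever its depth, and to be poor in RNA held inside the nucleus or the mitochondria. A barcode filled from a small or damaged cell would be expected to keep differences between cells. DOX intercalates into DNA and poisons topoisomerase II, and HCT-116 cells carry a working p53, which arrests the cell cycle after such damage.

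The limits themselves set the depth, the number of genes and part of the mitochondrial share, so these are descriptions with no test. Shallow barcodes had medians of 1416 and 1215 UMIs and 757 and 670 genes in DOX replicates 1 and 2, and deep barcodes had medians of 71511 and 80315.5 UMIs and 8702 and 9007.5 genes. The median mitochondrially encoded share was 0.860% and 1.04% in shallow barcodes, against 5.24% and 5.58% in deep ones. Shallow barcodes were 54.2% and 53.04% of the barcodes but held 3.96% and 3.24% of the UMIs of their libraries, 6338818 and 5523781 UMIs in all, while the deep barcodes held 95557576 and 80591102 UMIs. The lowest shallow barcodes stood at 1341 and 1160 UMIs, because 8000 barcodes were kept by instruction in each DOX library. Just inside the shallow limit, the 190 and 299 barcodes of 1800 to 2000 UMIs had medians of 940 and 923 genes. Just above it, the 272 and 225 barcodes of 2000 to 2200 UMIs had medians of 991.5 and 993 genes. At the deep limit, 2 barcodes per library lay between 18000 and 20000 UMIs, with medians of 3764.5 and 5075.5 genes, and 7 and 4 between 20000 and 22000 UMIs, with medians of 4666 and 4675.5 genes. The DOX libraries shared 24 barcode sequences, of which 8 were shallow in both, and without the barcodes found in more than 1 library the genes called in shallow barcodes, given next, numbered 2037 higher and 9055 lower.

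The UMIs of all shallow or all deep barcodes of a library were added up, and each gene was compared as its part of that total (CPM, counts scaled to the same total in every sum), paired by library. Of 18427 genes with enough UMIs to test, 2065 were higher and 9132 were lower in shallow than in deep barcodes (n = 2 libraries, library as block). The test was the quasi-likelihood test of edgeR with Benjamini-Hochberg adjustment, and a gene was called at an adjusted p under 0.05. Thus 11.2% of genes were called higher and 49.6% lower, and the median log2 difference (shallow minus deep) over all genes was −0.65. Scaling by TMM factors in place of totals moved the median to −0.10, a shift of 0.55, and split the calls into 4562 higher and 5235 lower, so the sign of a gene or list within that shift depends on the scaling. List medians are therefore also given as their distance from the median of all genes. Without DOX replicate 1 the genes called in shallow barcodes were 1100 higher and 5993 lower, and without replicate 2 they were 1175 and 6215. Neither the labels nor the methods say that the replicates were separate cultures, and p-values measure the spread between these libraries alone.

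Messages of the ribosome took a larger part of the RNA in shallow barcodes. Ribosomal protein genes, which are short and very abundant, made up 30.6% and 31.6% of UMIs in the shallow sums of DOX replicates 1 and 2, against 21.5% and 21.1% in the deep sums. Of the 80 gene entries tested for 79 ribosomal proteins, 78 were higher and 1 was lower, with a median log2 difference of 0.57, or 1.22 above the median of all genes. RPLP1 (chromosome 15, hg19), a protein of the ribosomal stalk, had 11358 and 10921 CPM in shallow barcodes and 8163 and 7510 CPM in deep barcodes. The 2 shallow values lay above both deep ones, a log2 difference of 0.51 (SE 0.04, adjusted p = 5.0e-10, edgeR). RPL31, a large-subunit protein, had the highest difference of the list at 1.21 (SE 0.04), with 1155 and 1150 CPM against 495 and 501 CPM. With TMM scaling all 80 entries were higher.

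Of 34 translation factor genes 19 were higher and 12 lower (median 0.20), or 29 and 3 with TMM scaling. TPT1, a translationally controlled protein, had 5146 and 5063 CPM in shallow and 3527 and 3294 CPM in deep barcodes, a log2 difference of 0.58 (SE 0.04). EIF3A, the large scaffold of an initiation factor, had 223 and 224 CPM against 587 and 594 CPM, a difference of −1.40 (SE 0.05), so members of the same machinery stood on opposite sides. EIF3C, EEF1G and the proteasome gene PSMA6 had few UMIs for genes of their class and may share reads with copies or overlapping genes, so their values are uncertain.

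Of 45 genes of small cytosolic proteins 37 were higher and 3 lower (median 0.68). S100A6, a small calcium-binding protein, reached 12746 and 11545 CPM in shallow barcodes against 5166 and 4566 CPM in deep ones, a log2 difference of 1.32 (SE 0.04, adjusted p = 8.6e-16, edgeR). FTH1, the ferritin heavy chain that stores iron, was the most abundant of these genes, with 13368 and 12606 CPM against 8581 and 6895 CPM. YWHAZ, a 14-3-3 adaptor protein, went the other way at −0.69 (SE 0.05).

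Subunits of the respiratory chain showed opposite sides of the same complexes. Of 64 nuclear-encoded subunits, whose messages are translated in the cytosol, 59 were higher and 1 lower (median 0.63), and together they took 3.16% and 3.09% of UMIs in shallow barcodes against 1.99% and 1.99% in deep ones. COX6C, a small subunit of cytochrome oxidase, had 1050 and 1026 CPM in shallow and 484 and 479 CPM in deep barcodes, a log2 difference of 1.11 (SE 0.04). MT-CO1 and MT-CO2, core subunits of the same oxidase made inside mitochondria, had shallow values of 2471 and 2879 CPM and of 2628 and 3128 CPM. Their deep values were 6864 and 7218 CPM and 9705 and 10244 CPM. The 13 mitochondrially encoded genes together took 1.74% and 2.00% of UMIs in shallow and 4.90% and 5.28% in deep barcodes, which is a description because the limit on the mitochondrial share helped to choose the barcodes.

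Of 14 proteasome core genes 13 were higher and none was lower (median 0.49). PSMB4 had 266 and 229 CPM in shallow and 132 and 122 CPM in deep barcodes. Of 17 glycolytic genes 4 were higher and 6 lower (median −0.16, 0.49 above that of all genes), or 13 and 1 with TMM scaling, and their summed share was larger in shallow barcodes, at 0.935% and 1.05% against 0.801% and 0.867%. GAPDH, which oxidises glyceraldehyde phosphate, was higher by 0.55 (SE 0.04), and HK2, which starts the pathway, was lower by 1.04 (SE 0.15) on the log2 scale. Cytosolic chaperones had 6 higher and 12 lower of 21 tested (median −0.18), a split that became 15 higher and 1 lower with TMM scaling. HSP90AB1, the constitutive HSP90, had 2821 and 2513 CPM against 3564 and 3754 CPM, a log2 difference of −0.46 that was 0.09 with TMM. HSPH1, a partner of HSP70, stood lower at −1.03 (SE 0.06).

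**Figure D1:**
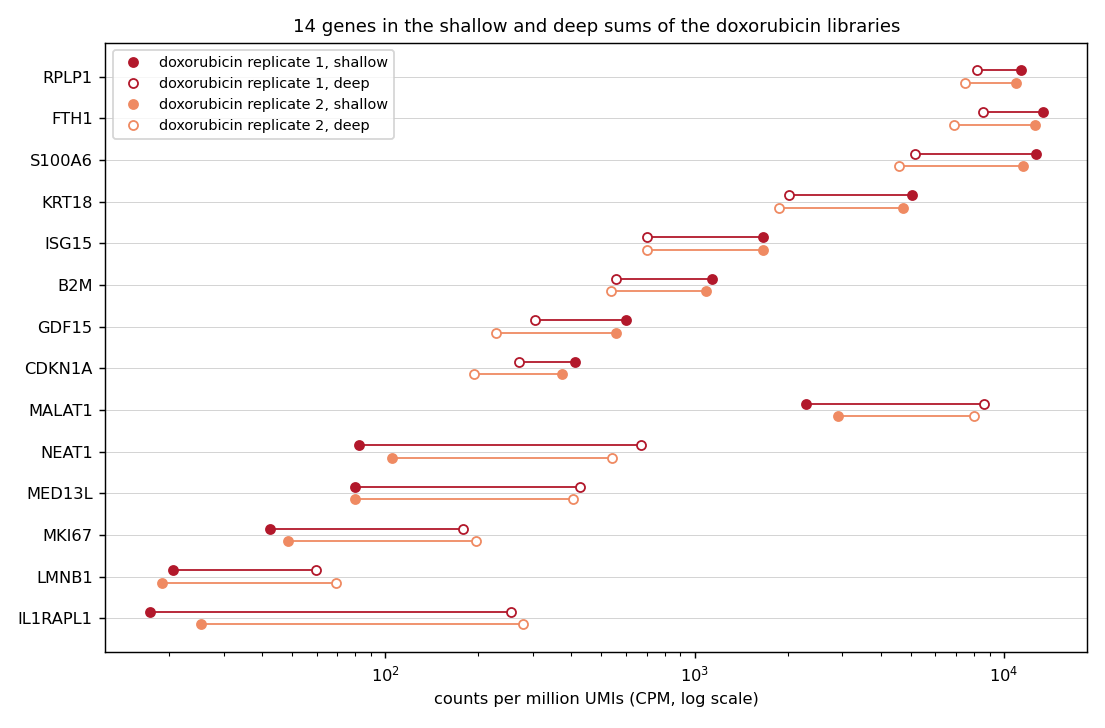
Levels of 14 genes in CPM (counts scaled to the same total in every sum, log scale) in the summed shallow (filled) and deep (open) barcodes of DOX replicates 1 and 2, with a line joining the values of 1 library. RPLP1 to CDKN1A lie to the right in shallow barcodes of both libraries, and MALAT1 to IL1RAPL1 lie to the left, with IL1RAPL1 at 17.4 and 25.3 CPM against 255 and 279 CPM.

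The difference followed the length of the canonical transcript. Over protein coding genes grouped by the length of their Ensembl canonical transcript, the median log2 difference was 0.44 for 527 genes under 800 bases, 0.14 for 1520 genes of 800 to 1500 bases, and −0.31, −0.76 and −1.18 for the groups of 1500 to 3000, 3000 to 5000 and 5000 or more bases. In the shortest group 57.3% of genes were called higher and 11.8% lower, and in the longest group 2.61% were called higher and 76.5% lower. When length was taken as the median over all transcripts annotated for a gene, the order was weaker and broken. The median was −0.50 under 800 bases, −0.41 at 800 to 1500 bases and −1.06 in the longest group. In that shortest group 19.8% of genes were called higher and 51.2% lower. The canonical transcript was chosen after this was seen. Genes are not replicates, and no test was made across them.

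The span of the gene on the chromosome, introns included, ordered the differences as well. The median was 0.12 for 1094 genes under 5 kb, −0.53 for 3802 genes of 20 to 50 kb and −1.54 for 1909 genes of 150 kb and over, of which 1.83% were called higher and 74.8% lower. Among genes with canonical transcripts under 800 bases the median fell from 0.52 in the shortest spans to −0.29 in spans of 50 to 150 kb. Among transcripts of 3000 to 5000 bases it fell from −0.23 under 5 kb to −1.51 at 150 kb and over. Among spans under 5 kb it fell with canonical length from 0.52 under 800 bases to −0.23 at 3000 to 5000 bases, and among spans of 150 kb and over from −0.99 at 800 to 1500 bases to −1.67 at 5000 and over. The order was broken in 2 places, at −0.29 and −0.23 for the first 2 length classes in spans of 50 to 150 kb, and at 0.22 and 0.23 for the first 2 span classes at 800 to 1500 bases. Genes spanning at least 150 kb gave 3.03% and 3.10% of UMIs in shallow barcodes and 8.54% and 8.71% in deep ones. Reads from introns of long genes would count for this span, and whether intron reads were counted is not given in the sources used here.

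**Figure D2:**
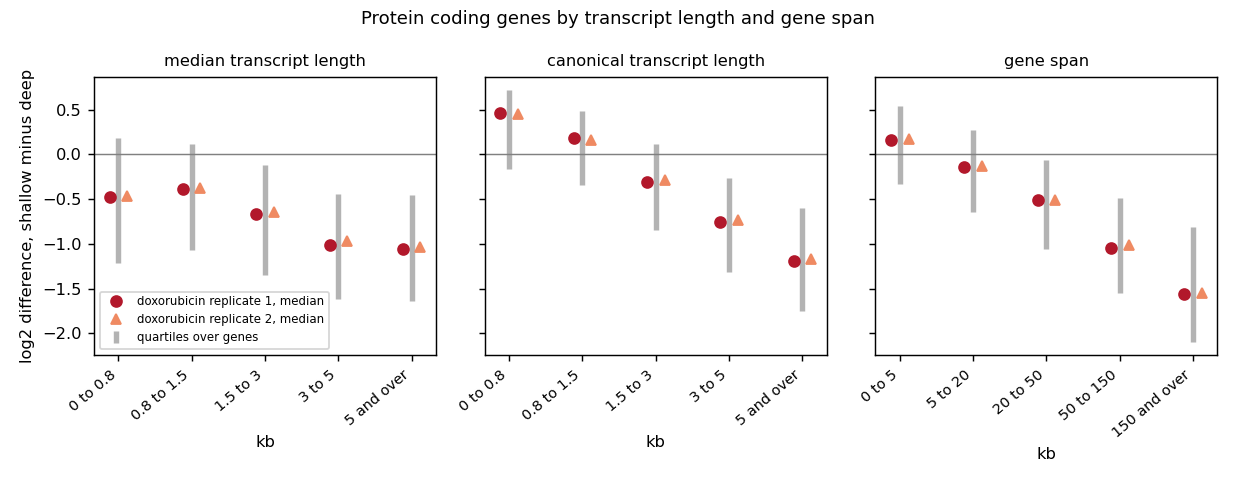
Median log2 difference (shallow minus deep) of protein coding genes in DOX replicate 1 (circles) and 2 (triangles), by median transcript length, canonical transcript length and gene span in kb, with grey bars from the lower to the upper quartile over genes. With the canonical length and the span, the medians fall from group to group in both libraries, to −1.18 and −1.54 in the longest groups when both libraries are fitted together.

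Of the 10 genes lowest in shallow barcodes, among those with at least 20 CPM in both deep sums, 8 were annotated as long noncoding RNAs, and the 9 with an annotated position spanned 114277 to 1369273 bases. IL1RAPL1 (chromosome X), a synaptic receptor accessory protein encoded by a gene of 1369273 bases, had 17.4 and 25.3 CPM in shallow barcodes against 255 and 279 CPM in deep ones, a log2 difference of −3.66 (SE 0.09). LINC01572, with a span of 428734 bases, had 4.89 and 4.16 CPM against 66.5 and 74.2 CPM, the lowest value at −3.94 (SE 0.13). The others were HCCS-DT, ENSG00000239498, ENSG00000236451, MIR924HG, C2orf48, ENSG00000187951, ENSG00000251574 and DANT2, with differences from −3.93 to −3.43.

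RNAs that stay in the nucleus were lower in shallow barcodes. Of 11 listed nuclear RNAs 9 were in the tables, 8 had enough UMIs and all 8 were lower, with a median log2 difference of −2.47, or −2.26 without MIAT, which had no UMI in either shallow sum, and 6 were lower with TMM scaling. The list took 0.245% and 0.311% of UMIs in shallow barcodes against 0.964% and 0.892% in deep ones. MALAT1 (chromosome 11, 65265111 to 65275544, hg19), an abundant RNA of nuclear speckles, had 2299 and 2917 CPM against 8605 and 8024 CPM, a log2 difference of −1.68 (SE 0.07, adjusted p = 4.2e-14, edgeR). NEAT1 (chromosome 11, 65190245 to 65213011), the scaffold of paraspeckles, had 82.0 and 105 CPM against 670 and 541 CPM, a difference of −2.70 (SE 0.09). For both, the shallow values of the 2 libraries lay below both deep values.

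Of 20 messages known to keep introns and to wait in the nucleus, 17 were lower and none was higher (median −0.85, which is 0.20 below that of all genes), and with TMM scaling 12 were lower and 3 higher. That distance was 0.063 above with no mitochondrial limit and 0.080 above with no filter on low counts. RBM6, an RNA-binding splicing regulator, had 29.2 and 24.3 CPM against 116 and 127 CPM, and CLK1, a kinase of splicing factors, had 21.5 and 21.7 CPM against 22.6 and 23.5 CPM, a difference within its error (−0.09, SE 0.10). Messages of long chromatin regulators were lower in 41 of 42 cases (median −1.83). MED13L, a subunit of the Mediator kinase module, had 80.0 and 79.8 CPM in shallow and 427 and 405 CPM in deep barcodes, a log2 difference of −2.38 (SE 0.06), and ARID1B of the SWI/SNF remodeller was the lowest at −2.73 (SE 0.09). Noncoding RNAs that are exported went the other way, with 4 of 5 tested higher, none lower and a median of 0.45. ZFAS1, a snoRNA host found on ribosomes, had 764 and 778 CPM against 573 and 555 CPM.

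Messages of secreted proteins were not depleted as a group. Of 68 listed genes 61 had enough UMIs, 23 were higher and 15 lower, with a median log2 difference of 0.10, or 0.74 above that of all genes. With TMM scaling 38 were higher and 7 lower. Their summed share was 0.523% and 0.527% of UMIs in shallow barcodes against 0.377% and 0.352% in deep ones. GDF15, a stress cytokine, had 601 and 557 CPM against 306 and 228 CPM, a difference of 1.13 (SE 0.06), and B2M, the soluble light chain of MHC class I, had 1142 and 1089 CPM against 557 and 536 CPM, a difference of 1.03 (SE 0.04). IGFBP6, which binds insulin-like growth factors, was higher by 1.51 (SE 0.06). EREG, a growth factor released from a membrane precursor, was lower, with 242 and 243 CPM against 457 and 457 CPM (−0.91, SE 0.05). LAMC1, a laminin chain of the matrix, was lower too, with 12.9 and 14.7 CPM against 53.2 and 47.0 CPM.

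Of 44 genes for translocation and folding in the endoplasmic reticulum 19 were higher and 14 lower (median 0.08), or 37 and 5 with TMM scaling. SSR4, a small subunit of the translocon-associated complex, had 488 and 545 CPM against 243 and 232 CPM, and HSP90B1, the chaperone of the lumen, had 326 and 336 CPM against 596 and 607 CPM. Of 25 lysosomal genes 11 were higher and 8 lower (median 0.01), or 19 and 2 with TMM scaling. CD63, a tetraspanin, was higher by 0.99 (SE 0.04), and NPC1, a large cholesterol transporter, was lower by 2.01 (SE 0.13) on the log2 scale. Plasma membrane proteins stood close to all genes, with 8 higher and 33 lower of 46 (median −0.68, 0.03 below that of all genes), or 17 and 21 with TMM scaling. EPCAM, an epithelial adhesion molecule, had 502 and 547 CPM against 302 and 329 CPM, while INSR, the insulin receptor, had 7.57 and 8.69 CPM against 38.9 and 42.6 CPM.

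Because length and span ordered the differences, each member of a list was also set against the median of protein coding genes in the same class of canonical length and span, a description added after the values were seen. Of 61 secreted proteins 50 lay above the median of their own class, by a median of 0.46, and of 44 genes of the endoplasmic reticulum 37 did, by 0.41. Ribosomal proteins lay 0.26 above (66 of 79), nuclear-encoded respiratory subunits 0.34 above (57 of 64) and small cytosolic proteins 0.32 above (37 of 45). Long chromatin proteins remained below their class by 0.46 (33 of 42), and messages with detained introns by 0.29 (18 of 20). Plasma membrane proteins were 0.11 above their class (30 of 46). Colorectal epithelial markers lay 0.87 above their class (12 of 13) and p53 targets 0.74 above (28 of 29), while S phase genes lay 0.50 below (33 of 40) and G2/M genes 0.59 below (49 of 52).

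**Figure D3:**
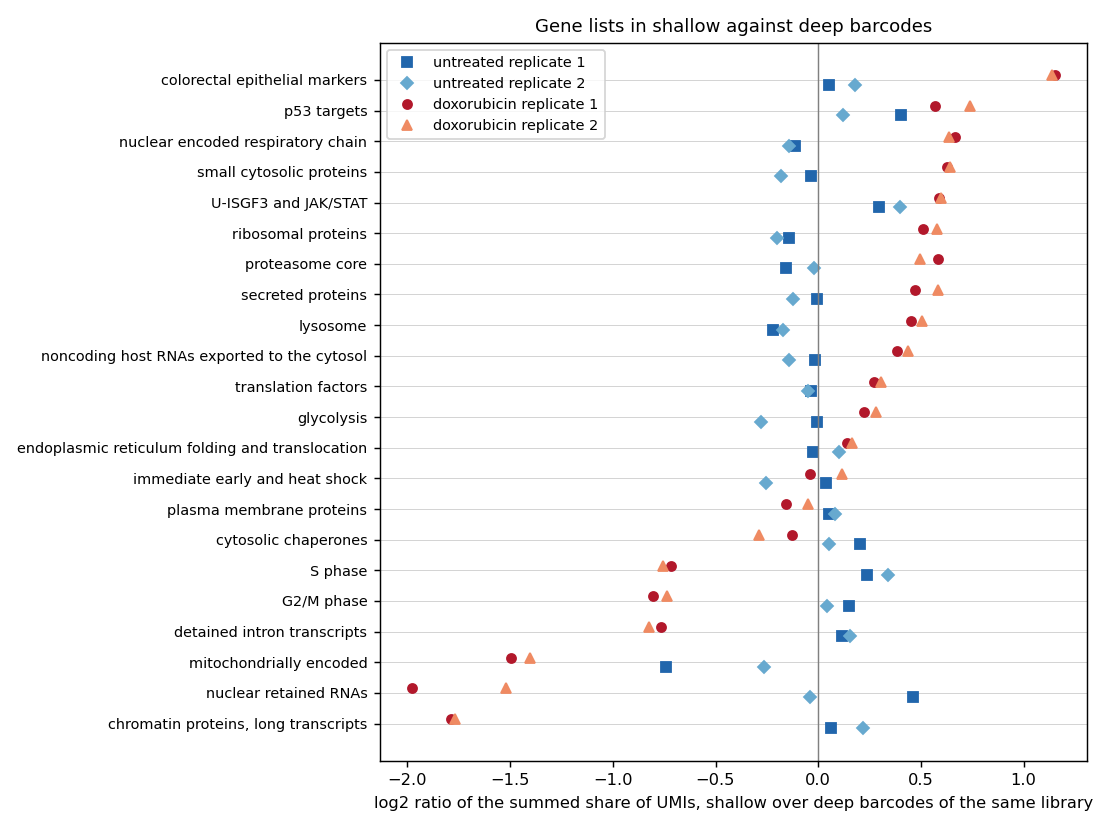
Log2 ratio of the summed share of UMIs, shallow over deep barcodes of the same library, for 22 gene lists in DOX replicates 1 and 2 and untreated replicates 1 and 2. The DOX symbols run from nuclear RNAs and long chromatin proteins on the left to colorectal epithelial markers on the right, and the untreated symbols lie between −0.74 and 0.46.

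Targets of p53 took a larger part in shallow barcodes. Of 31 listed genes 30 were tested, 20 were higher and 7 lower (median 0.55), and their share was 0.293% and 0.279% against 0.197% and 0.167%. CDKN1A (chromosome 6), which encodes the cell cycle inhibitor p21, had 409 and 373 CPM in shallow and 271 and 193 CPM in deep barcodes, a log2 difference of 0.77 (SE 0.06, adjusted p = 1.5e-09, edgeR). With a mitochondrial limit of 4% the difference was −0.15, and with no mitochondrial limit its sign did not turn. The limit of 4% left out most deep barcodes, whose mitochondrial share had lower quartiles of 3.97% and 4.35%, so the deep sums compared were different ones. MDM2, the ligase that degrades p53, was higher by 0.49 (SE 0.07) but stood at −0.08 with no mitochondrial limit. TP53I3, an oxidoreductase, had 85.2 and 82.7 CPM against 33.2 and 26.8 CPM, and TNFRSF10B, a death receptor, had 27.8 and 26.8 CPM against 54.3 and 54.4 CPM.

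Genes of the dividing cell were lower. Of 40 S phase genes 38 were lower and 1 was higher (median −0.996), and of 52 G2/M genes 46 were lower and none higher (median −1.11), which are 0.35 and 0.46 below the median of all genes. That distance was 0.088 above for S phase and 0.012 above for G2/M with no mitochondrial limit, and for S phase 0.011 above with a limit of 4% and 0.046 above against deep barcodes of 20000 to 50000 UMIs. With TMM scaling 5 S phase genes were higher and 24 lower. MKI67, which coats mitotic chromosomes, had 42.3 and 48.3 CPM in shallow barcodes against 179 and 197 CPM in deep ones (−2.05, SE 0.07). POLA1, the catalytic subunit of DNA polymerase alpha, had 12.8 and 9.41 CPM against 72.8 and 81.2 CPM. PCNA, the sliding clamp and also a p53 target, was the 1 member called higher, with 230 and 251 CPM against 152 and 155 CPM (0.65, SE 0.05). CKS1B, a small partner of cyclin-dependent kinases, stood near equality at 0.09 (SE 0.05), and with TMM scaling 7 G2/M genes were higher and 35 lower.

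The other proliferation and lamina genes that the study follows were lower. CDC20, an activator of the anaphase-promoting complex, had 88.5 and 102 CPM against 140 and 143 CPM (−0.58, SE 0.06), and ANAPC1, a large subunit of that complex, had 17.4 and 17.7 CPM against 47.3 and 47.9 CPM (−1.44, SE 0.10). BIRC5, the apoptosis inhibitor survivin, stood at −0.79 (SE 0.07). LMNB1, lamin B1 of the nuclear envelope, had 20.5 and 19.01 CPM against 59.5 and 69.4 CPM (−1.69, SE 0.10).

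Of 36 genes of the U-ISGF3 signature and the JAK/STAT pathway 35 were tested, 10 were higher and 18 lower (median −0.33, 0.32 above that of all genes), while their summed share was larger in shallow barcodes, at 0.323% and 0.326% against 0.215% and 0.215%. With TMM scaling 13 were higher and 11 lower. The list summed to 3227 and 3259 CPM in shallow against 2146 and 2154 CPM in deep barcodes, and most of that gap was of ISG15. ISG15, a ubiquitin-like modifier, had 1663 and 1663 CPM against 702 and 703 CPM, a log2 difference of 1.24 (SE 0.04). IFIT2, an interferon-induced gene outside that list, which binds foreign RNA, had 49.9 and 39.5 CPM against 7.74 and 7.38 CPM, and its difference of 2.56 (SE 0.10) was among the 3 highest of all genes past the expression limit. STAT2, a transcription factor of the pathway, had 7.57 and 6.70 CPM against 15.01 and 14.5 CPM (−1.04, SE 0.15), and HSH2D, an adaptor protein, had 11.8 and 12.5 CPM against 31.7 and 32.3 CPM (−1.40, SE 0.11).

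IRF9, the DNA-binding partner of STAT2, had no UMI in the shallow sums. In deep barcodes it had 4.24 and 5.82 CPM, which would give 26.9 and 32.1 UMIs in shallow sums of this size. A count of 0 allows up to 3 UMIs, so its share was at least 8.96-fold and 10.7-fold lower in the shallow sums of replicates 1 and 2. It also had no UMI in the 826 and 486 barcodes of 2000 to 5000 UMIs, but 4 and 6 UMIs in the 113 and 120 barcodes of 5000 to 20000 UMIs, at 3.50 and 5.13 CPM. Of 11687 genes with at least 20 UMIs due in both shallow sums, IRF9 and LINC01290 were at 0 in both. IRF9 (chromosome 14, 24630443 to 24637252, hg19) overlaps the annotated gene ENSG00000259529 on the same strand, which had 0 and 0.181 CPM in shallow and 1.98 and 2.09 CPM in deep barcodes. The part of that overlap in the count of 0 was not tested.

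Markers of the colorectal epithelium took a larger part in shallow barcodes. Of 16 colorectal epithelial markers 13 were tested, 10 were higher and 2 lower (median 0.70), and they took 1.49% and 1.36% of UMIs against 0.671% and 0.615%. Most UMIs of this list were of the keratins KRT18, KRT8 and KRT19, so the summed share is mainly theirs. KRT8 had 4712 and 3773 CPM in shallow against 1982 and 1665 CPM in deep barcodes, and KRT19 3733 and 3569 CPM against 1741 and 1677 CPM. KRT18, a simple-epithelial keratin, had 5040 and 4720 CPM against 2016 and 1872 CPM, a log2 difference of 1.33 (SE 0.04, adjusted p = 1.1e-15, edgeR). CDH1, the adhesion protein E-cadherin, was lower, with 27.0 and 23.2 CPM against 51.0 and 45.9 CPM. Markers of leukocytes, red cells, endothelium and fibroblasts were near 0: 21 of 22 were in the tables, 7 had enough UMIs to test, and together they took 0.0020% and 0.0028% of UMIs in shallow and 0.0020% and 0.0018% in deep barcodes. Most UMIs of this list in shallow barcodes were of ACTA2, a smooth muscle actin, at 12.8 and 15.03 CPM against 8.70 and 6.32 CPM.

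The 10 genes highest in shallow barcodes, among those with at least 20 CPM in both shallow sums, had log2 differences from 1.58 to 2.69. KRTAP3-1, a keratin-associated protein, had 225 and 141 CPM against 43.2 and 20.3 CPM (2.57, SE 0.08). FXYD3, a regulator of the sodium pump, had 311 and 246 CPM against 84.4 and 54.3 CPM (2.02, SE 0.06), and S100A2, a calcium-binding protein, had 236 and 213 CPM against 79.3 and 65.4 CPM (1.64, SE 0.06). The anion exchanger SLC26A3 (1.58) followed, with the noncoding entries AC015987.2 (2.69), ENSG00000258757 (2.30), LINC01764 (1.81) and UNC5B-AS1 (1.62), and IFIT2. Of the early response genes 4 were higher and 7 lower of 16 tested (median −0.15, 10 higher and 2 lower with TMM), led by the stress factor ATF3 with 116 and 153 CPM against 50.2 and 54.3 CPM.

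The composition changed along depth well above the shallow limit. In DOX replicates 1 and 2, ribosomal proteins took 30.8% and 31.7% of UMIs at 1000 to 1500 UMIs per barcode and 30.2% and 31.3% at 1500 to 2000. They took 29.4% and 29.1% at 2000 to 5000, but 22.2% and 24.1% at 5000 to 10000 and 19.1% and 17.4% at 10000 to 20000 UMIs. Nuclear RNAs ran the opposite way, from 0.239% and 0.305% at 1000 to 1500 UMIs to 2.12% and 2.06% at 10000 to 20000 UMIs, then 1.11% and 2.20% at 20000 to 50000 and 0.950% and 0.830% at 50000 to 150000 UMIs. At 5000 to 10000 UMIs nuclear RNAs took 1.42% and 0.771%. Their share was highest at 10000 to 20000 UMIs in replicate 1 and at 20000 to 50000 UMIs in replicate 2. The 47 and 46 barcodes of 10000 to 20000 UMIs had medians of 4050 and 4140.5 genes. In the untreated libraries ribosomal proteins lay between 15.2% and 20.4% in every class of depth with at least 20 barcodes.

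**Figure D4:**
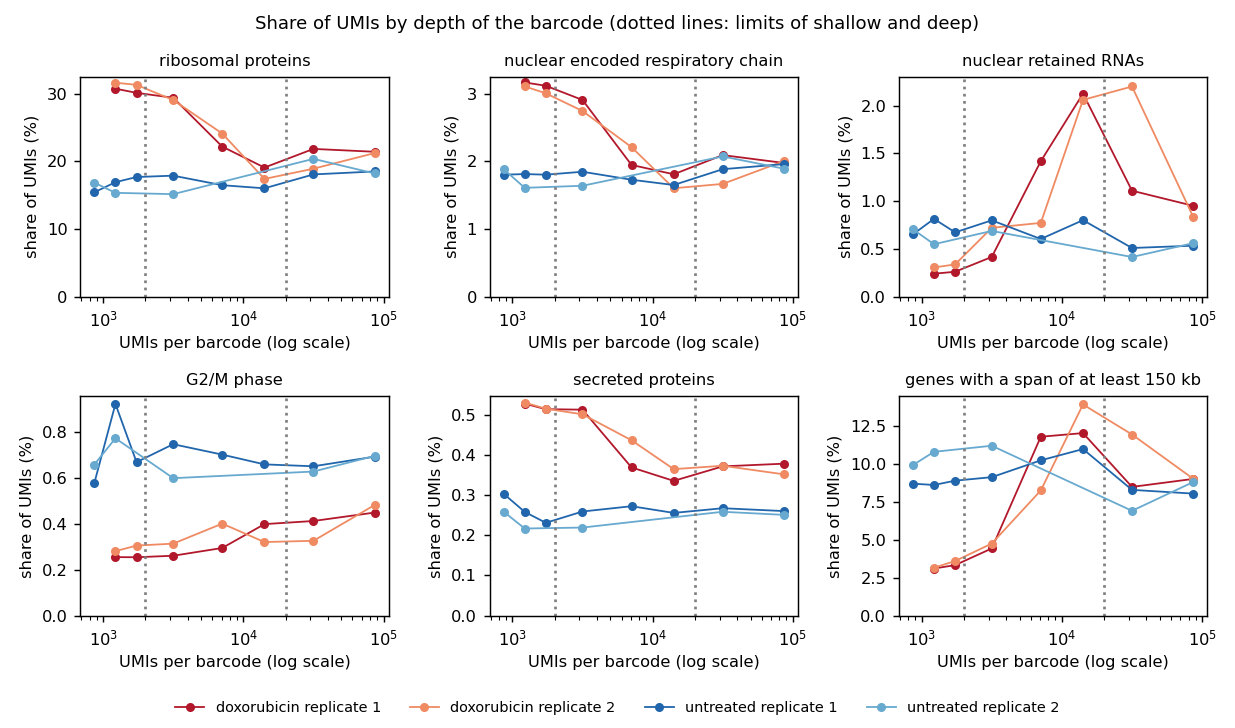
Share of UMIs of 6 gene groups by UMIs per barcode (log scale, points at the geometric middle of each class with at least 20 barcodes), in the 4 libraries, with dotted lines at 2000 and 20000 UMIs. In the DOX libraries the ribosomal share changes most between the classes of 2000 to 5000 and 10000 to 20000 UMIs. Nuclear RNAs rise earlier, from 0.239% and 0.305% at 1000 to 1500 UMIs to 0.415% and 0.720% at 2000 to 5000 UMIs. Over the same classes genes spanning at least 150 kb rise from 3.11% and 3.17% to 4.44% and 4.76%. At 10000 to 20000 UMIs these long genes reach 12.1% and 13.9%.

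Shallow barcodes of a DOX library varied less than deep ones of the same library. With every barcode thinned to 500 UMIs, the variance of a gene over barcodes was divided by the variance that counting alone gives, so that draws from 1 pool have an index of 1. Over 657 and 652 genes with at least 200 CPM, mitochondrially encoded genes apart, the median index was 1.02 in the shallow barcodes of both DOX replicates, and MALAT1, at 2.04 and 2.80, was the only gene above 1.5. In deep barcodes the medians were 1.06 and 1.05, 22 and 21 genes were above 1.5, and MALAT1 reached 18.0 and 13.6. The deep barcodes of the untreated libraries also had a median of 1.02 in both replicates, with 4 and 3 genes above 1.5, so a median near 1 at this depth does not tell a shared pool from cells of 1 kind. FTH1 had 1.05 and 1.08 in shallow against 8.30 and 5.79 in deep barcodes, S100A6 1.06 and 1.06 against 2.36 and 2.45, and ISG15 1.07 and 1.12 against 1.60 and 1.32. At 1000 UMIs per barcode MALAT1 was again the only gene above 1.5 in shallow barcodes, against 64 and 59 genes in deep ones.

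Sums over lists, which hold more UMIs per barcode, differed more. Ribosomal proteins had a mean of 153 and 158 UMIs per 500 in shallow barcodes, with an SD of 14.02 and 15.6 where counting gives 10.3 and 10.4, an index of 1.85 and 2.24. In deep barcodes the means were 106 and 105, with SDs of 37.4 and 36.8, an index of 16.8 and 16.3, and in untreated deep barcodes the index was 3.595 and 3.77. G2/M genes had 1.08 and 1.10 in shallow against 2.17 and 2.00 in deep barcodes, and p53 targets 1.07 and 1.04 against 2.57 and 1.65. Nuclear RNAs had 2.09 and 2.87 against 18.3 and 14.2. The mitochondrially encoded genes were the exception, with an index of 11.4 and 11.4 in shallow against 4.89 and 4.12 in deep barcodes, and 5% of shallow barcodes had at least 30 or 33 such UMIs of 500.

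**Figure D5:**
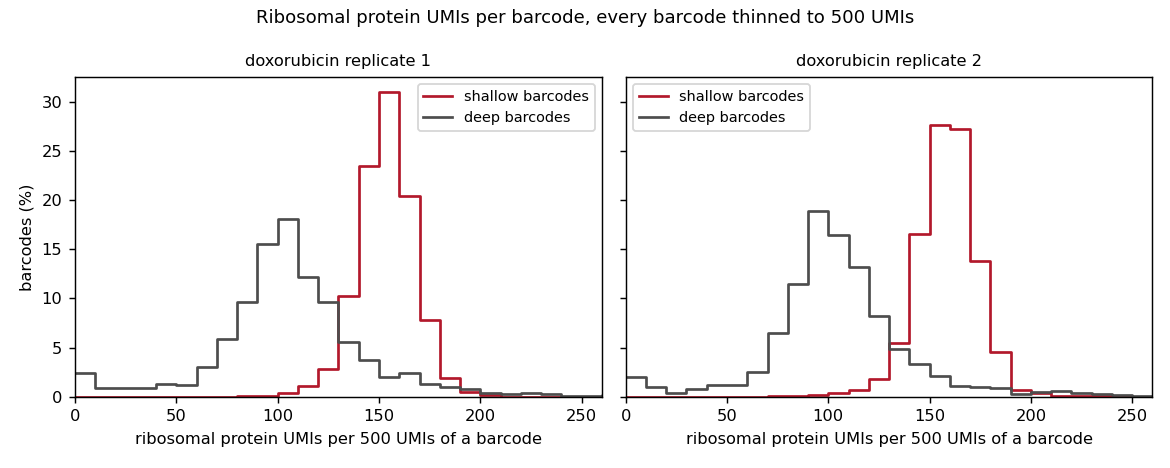
Share of barcodes (%) by the number of ribosomal protein UMIs among 500 UMIs drawn from each barcode, in the shallow and deep barcodes of DOX replicates 1 and 2. Shallow barcodes form 1 narrow peak around means of 153 and 158 UMIs. Deep barcodes form a wide one around 106 and 105 UMIs, with tails to low and to high values that reach into the shallow peak.

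Set against what free RNA would predict, the values stand as follows. A shared pool predicts counting spread alone, which MALAT1 and the summed ribosomal share exceeded. Mitochondrially encoded genes exceeded it too, but their share helped to choose the barcodes, so their spread is a description only. The spread of the median gene was the same 1.02 times counting in DOX shallow and untreated deep barcodes, and bears on neither origin. A pool of leaked cytosol predicts little nuclear RNA and many short cytosolic messages. The nuclear list was lower in 8 of 8 cases, where 49.6% of all genes were lower. Of the ribosomal entries 78 of 80 were higher, where 11.2% of all genes were higher. Both lists were chosen with earlier results of these data known, so these counts are a description. A shared pool predicts a composition that does not depend on depth. Between 1000 to 1500 and 1500 to 2000 UMIs, a narrow range, the ribosomal share differed by less than 1 percentage point. The share of nuclear RNAs went from 0.239% to 0.260% and from 0.305% to 0.337%. Genes spanning at least 150 kb went from 3.11% to 3.34% and from 3.17% to 3.61%, and long chromatin proteins from 0.116% to 0.128% and from 0.119% to 0.144%. If messages bound to the endoplasmic reticulum leaked less, secreted proteins would be lower, which was not tested. Their list was chosen with earlier results known and holds GDF15, also listed as a p53 target, so its level cannot decide this. Secreted proteins were 0.74 above the median of all genes, while ribosomal, small cytosolic and nuclear-encoded respiratory lists were 1.22, 1.33 and 1.28 above it. Against coding genes of the same canonical length and span, secreted proteins were 0.46 above, and those lists 0.26, 0.32 and 0.34 above. Small cells or fragments of cells that share 1 composition would give some of the same values. Droplets that hold fewer UMIs than the kept barcodes were not analysed here, and the origin of the shallow barcodes was not tested.

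The shallow barcodes of untreated libraries had another composition. Ribosomal proteins took 16.7% and 15.9% of UMIs in their shallow sums and 18.5% and 18.3% in their deep sums, long chromatin proteins 0.405% and 0.502% against 0.388% and 0.433%, and nuclear RNAs 0.730% and 0.539% against 0.530% and 0.555%. These shallow sums held 167869 and 84191 UMIs. The difference between shallow and deep barcodes was itself higher in DOX than in untreated libraries for 501 of 18637 genes tested and lower for 2593, which is 2.69% and 13.9% (interaction term, edgeR's quasi-likelihood test with Benjamini-Hochberg adjustment, n = 2 libraries per condition), or 1586 and 1055 with TMM scaling. Without untreated replicate 1 the counts were 249 and 1215. Of 80 ribosomal entries 74 were higher and none lower in this term, of 64 nuclear-encoded respiratory genes 44 and 1, and of 42 long chromatin proteins none and 34. Of 40 S phase genes 25 and of 52 G2/M genes 35 were lower and none higher, whereas of 30 p53 targets 2 were higher and none lower. Barcodes were kept by instruction in the DOX libraries alone, so the drug and the way barcodes were kept cannot be told apart here.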

How the data were processed

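The deposited files hold raw UMI counts per gene and barcode, which the authors made with Cell Ranger (version 7.2.0 in the methods and file headers, 7.0.0 in the submitters' processing notes, which also list CASAVA 1.8.2, SAMtools 1.2 and bedtools 2.25) on hg19. For DOX libraries the authors had the program keep 8000 barcodes, while untreated libraries kept its own calls. No doublet caller was run and no background RNA was removed. Sums per library and group were tested with edgeR 4.0.16 (glmQLFit, filterByExpr, factors of 1, library as block, which leaves 1 residual degree of freedom moderated across genes); shallow and deep sums are paired because they come from the same library. DESeq2 1.42.0 was an alternative. Lengths and spans came from GENCODE v44 lifted to hg19 (17919 of 18427 genes). The members and the 23 gene lists were chosen with earlier results of these data known. Genes were named by rule: the 10 highest and lowest, the 3 most abundant of each list, genes the study names, and the extremes of the interaction; any other gene was named after its values were seen. Counts were simulated with 67, 67 and 66 genes changed 1.5, 2 and 4-fold, up or down at random, at a fixed dispersion. Of these genes 53.7%, 95.5% and 100% were called, and 4.05% of calls were unchanged genes, with 18269 genes tested. For the interaction 0%, 7.46% and 59.1% were called. In the data 60.8% of genes were called, most of them lower, so 4.05% is no error rate for this comparison. Bulk RNA libraries of the series were not used. Some genes that the rule picks are not reported here.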

Additional observations from a re-analysis of the deposited data

Results flagged for a closer look

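The gap between shallow and deep barcodes differed between DOX and untreated libraries by the test of the difference itself (interaction term, edgeR's quasi-likelihood test with Benjamini-Hochberg adjustment). It was higher in DOX for 501 of 18637 genes (2.69%) and lower for 2593 (13.9%), or for 1586 and 1055 with TMM scaling. Of the lists, 74 of 80 ribosomal protein entries and 44 of 64 nuclear-encoded respiratory chain genes were higher in this term. Lower were 34 of 42 long chromatin genes, 4 of 8 nuclear RNAs, 25 of 40 S phase genes and 35 of 52 G2/M genes.

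The 5 genes highest in the interaction were FES (14.46 on the log2 scale), KAT5 (13.78), SYCE1L (13.62), MARCHF2 (13.49) and CYB5A (4.52). FES, KAT5, SYCE1L and MARCHF2 had no UMI in either untreated shallow sum, so these fitted values depend on the prior count and bound nothing, while in DOX shallow sums FES had 294 and 276 UMIs and KAT5 97 and 119. CYB5A had 1 and 0 UMIs in the untreated shallow sums against 1090 and 819 in the DOX ones. A count of 0 allows up to 3 UMIs, which is 17.9 and 35.6 CPM in the untreated shallow sums, near or above the 26.9 and 26.0 CPM of FES in the untreated deep sums. The 5 lowest were CD226 (−4.92), ENSG00000236451 (−4.80), ENSG00000239498 (−4.59), ENSG00000267002 (−4.57) and HMGA2-AS1 (−4.42). In the untreated shallow sums these genes had, in this order, 5 and 3, 10 and 0, 30 and 8, 4 and 2, and 22 and 20 UMIs. CD226 and ENSG00000267002 reached the 20 CPM needed for naming only through these few UMIs, so their values are uncertain.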

How the results depend on the processing

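Each result was recomputed under the alternatives to the processing, 1 at a time, on the log2 scale where a difference is given, and the cause of a change was not tested.  With TMM factors 4562 genes were higher and 5235 lower, and with DESeq2 and its size factors 3548 and 3767, with an all-gene median of 0.15 over 28213 genes. The sign then turned, with TMM and DESeq2 values respectively, for ENO1 (0.53, 0.52), HSP90AB1 (0.094, 0.090), HSP90AA1 (0.17, 0.16), HSPA8 (0.38, 0.37), SRSF7 (0.20, 0.19), SNHG7 (0.51, 0.51), CALR (0.52, 0.52), CD44 (0.038, 0.035), NASP (0.23, 0.23), TYMS (0.19, 0.18), IER3 (0.53, 0.53), IER2 (0.35, 0.35) and CD68 (0.44, 0.43). Without ribosomal and mitochondrially encoded genes it turned for ENO1 (0.11), SNHG7 (0.094), CALR (0.10), IER3 (0.12) and CD68 (0.026). With deep barcodes of 20000 to 50000 UMIs 1157 genes were higher, and plasma membrane proteins stood 0.12 and S phase genes 0.046 above the median of all genes, with CALR at 0.035. With deep barcodes of 50000 to 150000 UMIs IER3 was at 0.0027, and with thinned deep sums at 0.0094. With every barcode thinned to 500 UMIs 1059 genes were higher and 4607 lower, and plasma membrane proteins stood 0.011 above all genes. With a mitochondrial limit of 4%, S phase genes stood 0.011 above all genes, ENO1 was at 0.12, SRSF7 at 0.050, CALR at 0.20, CDKN1A at −0.15, MDM2 at −0.0021, NASP at 0.091 and IER3 at 0.10. With no mitochondrial limit, detained intron messages stood 0.063, S phase genes 0.088 and G2/M genes 0.012 above all genes, ENO1 was at 0.13, CALR at 0.14, MDM2 at −0.083 and IER3 at 0.11. With no filter on low counts, detained intron messages stood 0.080 and plasma membrane proteins 0.25 above all genes.

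Leaving out 1 DOX library, in a fit with the untreated ones so that the lone library is assumed to vary like the others, gave 1100 to 1175 genes higher and 5993 to 6215 lower. Without replicate 1 and without replicate 2 respectively, plasma membrane proteins stood at 0.068 and −0.076 against all genes, LDHB at −0.048 and 0.11, ENO1 at −0.064 and 0.012, IER3 at 0.065 and −0.10, and CD68 at 0.030 and −0.27. The interaction gave 1586 higher and 1055 lower genes with TMM and 249 to 396 higher and 1215 to 2088 lower without 1 library. Without untreated replicate 1 the interaction of ENSG00000236451 was 9.40, and without untreated replicate 2 it was −5.41. The median of the shortest less that of the longest transcripts was 0.56, and 1.40 with the longest transcript, 1.61 with the canonical transcript and 0.57 without either library. Without the replicate block 2037 genes were higher and 9280 lower, and no list changed sign.

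Alternatives chosen after seeing the data were the canonical transcript, a shallow limit of 1700 UMIs (2063 higher, 9124 lower) and the removal of shared barcodes. A shallow limit of 1000 UMIs left no DOX barcode, and 1000 to 2000 UMIs kept the same ones. A description by N-terminal hydropathy was not run, as no protein sequences were used here. Depth limits the untreated shallow sums most, and counting intervals cover counting error only.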

Other observations

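In the untreated libraries the shallow barcodes varied more than the deep ones. With 500 UMIs drawn from each, ribosomal proteins had an index of 9.14 and 7.05 in the 140 and 71 shallow barcodes, against 3.595 and 3.77 in deep ones, and MALAT1 5.47 and 2.84 against 2.19 and 1.99. In the DOX libraries this order was the opposite for both. FTH1 had 2.13 and 2.67 in untreated shallow barcodes against 1.60 and 1.48 in deep ones. The difference between conditions was not tested.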
